A study of Mus musculus with 19 samples.

Results

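Troponin is the calcium switch of the thin filament in striated muscle. Its C subunit binds calcium, its I subunit holds back the binding of myosin to actin, and its T subunit anchors the complex to tropomyosin. Fast skeletal fibres are known for the isoforms Tnnt3, Tnni2 and Tnnc2, slow skeletal fibres for Tnnt1, Tnni1 and Tnnc1, and adult heart muscle for Tnnt2 and Tnni3 together with Tnnc1. Smooth muscle and endothelial cells use other calcium switches.

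The 8 troponin isoform genes Tnnt1, Tnnt2, Tnnt3, Tnni1, Tnni2, Tnni3, Tnnc1 and Tnnc2 were described here, out of 22180 genes with a probe set that carried a single gene symbol. They were chosen by name, with earlier results of these data known. Each had 1 such probe set and none shared with another gene, and no filter on low values was applied, so all 8 are accounted for. Levels are log2 intensities, on which a step of 1 is a doubling of signal, and they were compared between tissues for the same probe set and never between probe sets.

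The samples were 7 tumors, which the series' design text calls angiosarcomas (malignant tumors with features of blood vessel lining), 4 aortas, 4 sternocleidomastoid muscles of the neck and 4 quadriceps femoris muscles of the thigh, with 1 array each. Tumors came from aP2-Cre/+;DicerFlox/- mice, in which the promoter of the fatty acid binding protein aP2 drives Cre recombinase, with a floxed and a null allele of the microRNA-processing enzyme Dicer. The aortas and muscles came from wild type mice. The strain was mixed C57Bl/6 and 129X1/SvJ in all 19 samples. The labels give no age or sex and do not say which samples shared an animal, so p-values measure only the spread between these samples, and genotype and tissue cannot be told apart in any tumor comparison.

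The 19 array medians ranged from 5.35 to 5.48. The mean of 7 endothelial markers ran from 10.11 to 11.08 in tumors and from 8.73 to 8.92 in aortas, and that of 8 smooth muscle markers from 8.42 to 9.46 in tumors and from 9.96 to 10.40 in aortas. The mean of 11 fast fibre genes lay between 12.22 and 12.30 in sternocleidomastoid and between 11.87 and 12.34 in quadriceps. Heart muscle markers were also high in the aortas: the mean of 14 was 8.34 to 8.91 in aortas, against 5.89 to 6.14 in sternocleidomastoid and 5.99 to 6.18 in quadriceps. In aortas 1 and 3 the fast fibre list stood at 7.33 and 7.16, above aortas 2 and 4 at 5.62 and 5.70, so the differences of the troponins in comparisons with aorta are also given without aortas 1 and 3. That choice was made after seeing these values.

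**Figure D1:**
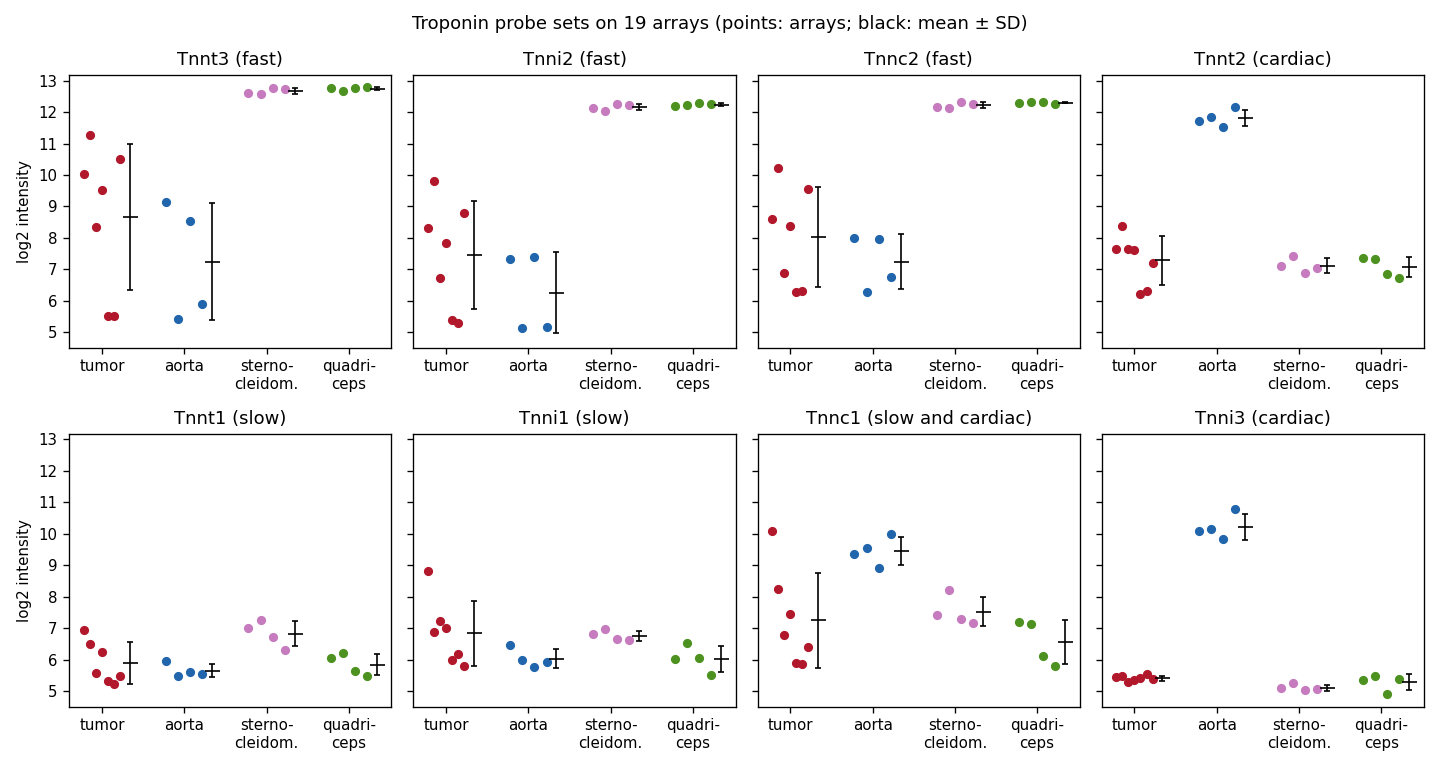
Log2 intensity of the 8 troponin probe sets, 1 panel per gene, with a point per array in tumor, aorta, sternocleidomastoid and quadriceps and the mean ± SD in black. Fast isoforms sat above 12 in every muscle array and were scattered in tumors and aortas, whereas Tnnt2 and Tnni3 were high in the 4 aortas alone.

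The first comparison asked how troponins in the tumors differed from those of a normal vessel. Of the 8 genes, 3 fell in tumors and 0 rose (limma, Benjamini-Hochberg adjusted p under 0.05). Over all genes 36.2% were called in this comparison, 17.5% as lower and 18.6% as higher. How many of all genes had groups without overlap was not counted for any comparison. The 3 genes that fell were Tnnt2, Tnni3 and Tnnc1, which are the isoforms of adult heart muscle. At an unadjusted p under 0.05 the count was also 3. The median difference over the 8 genes was 0.52 log2 units, against -0.02 over all genes.

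Tnni3 encodes cardiac troponin I. Its signal in tumors had a lowest value of 5.27, a median of 5.42 and a highest of 5.53, against 10.09, 10.15, 9.84 and 10.78 in aortas 1 to 4. All 7 tumors lay below all 4 aortas, and 5 of the 7 lay below the median of their own array. The tumor minus aorta difference was -4.81 ± 0.14 log2 units (SE; limma adjusted p = 1.07e-14). Because the tumor mean of 5.41 ± 0.08 (SD, n = 7) lay below the median of every tumor array, the change is stated as at least 27.0-fold lower, with each tumor value raised to its array median where it was below it.

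Tnnt2 encodes cardiac troponin T, which is also made in immature skeletal muscle. In tumors it ran from 6.21 in tumor 5 through a median of 7.61 to 8.38 in tumor 2, against 11.73, 11.85, 11.53 and 12.16 in aortas 1 to 4. The groups did not overlap, and the difference was -4.53 ± 0.31 (limma adjusted p = 3.26e-09), a 23.1-fold lower signal in tumors. Unlike Tnni3, Tnnt2 was above the array median in all 7 tumors. Its tumor mean of 7.29 ± 0.78 (SD, n = 7) was set against muscle means of 7.11 ± 0.23 in sternocleidomastoid and 7.07 ± 0.33 in quadriceps (n = 4 each).

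Tnnc1 encodes the troponin C shared by heart and slow skeletal fibres. Its tumor values spanned 5.87 in tumor 6, a median of 6.77 and 10.08 in tumor 1, against 9.35, 9.55, 8.90 and 9.98 in aortas 1 to 4. Here 6 tumors lay below all aortas and tumor 1 lay above all of them. Tnnc1 fell by 2.20 ± 0.59 log2 units (adjusted p = 0.00614), but with tumors 1 to 4 alone the difference was -1.31 and missed the threshold (adjusted p = 0.0599), and with tumors 5 to 7 alone it was -3.39 (adjusted p = 3.54e-06). The title codes place tumors 1 to 4 before and tumors 5 to 7 after the normal tissues, and no label says what the codes stand for. Without aortas 1 and 3, Tnni3 differed by -5.06, Tnnt2 by -4.72 and Tnnc1 by -2.52, and all 3 stayed past the threshold (adjusted p = 1.16e-12, 6.94e-07 and 0.0258).

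Heart muscle markers outside the troponins were also lower in tumors than in aortas. Of 14 measured, 13 fell in tumors and 0 rose, with a median difference of -3.09. Among them Myl7, the atrial myosin light chain, was at least 59.0-fold lower, and Pln, which restrains the calcium pump of the sarcoplasmic reticulum, at least 30.8-fold lower. The list mean was 5.39 to 5.76 in tumors and 8.34 to 8.91 in aortas. Among the same tumors Tnnc1 ran from 5.87 to 10.08, a wider range than that of the list mean. Tumor 1 was highest and tumor 2 next in both. Tumor 6 had the lowest Tnnc1, while its list mean was 5.65. The arrays measured RNA of whole tissue pieces, in which fewer cells of a type and less RNA per cell cannot be told apart. What part the heart muscle marker RNA in the aorta samples has in the lower cardiac troponins was not tested.

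The promoter windows of the 3 genes that were high in aorta are shown with that of Tnnt1, because Tnnt1 is the direct neighbour of Tnni3 on chromosome 7 and was not higher in aorta than in muscle. Each window runs from 250 bases before to 50 bases after a RefSeq transcript start in GRCm38.p6, written 5′ to 3′ on the gene's strand, and capitals mark the motif letters searched on both strands. They lie at chr1:135836084-135836383 on the plus strand (Tnnt2, the first of its 2 starts), chr14:31208062-31208361 on the plus strand (Tnnc1), chr7:4522479-4522778 on the minus strand (Tnni3) and chr7:4515926-4516225 on the minus strand (Tnnt1).
Tnnt2: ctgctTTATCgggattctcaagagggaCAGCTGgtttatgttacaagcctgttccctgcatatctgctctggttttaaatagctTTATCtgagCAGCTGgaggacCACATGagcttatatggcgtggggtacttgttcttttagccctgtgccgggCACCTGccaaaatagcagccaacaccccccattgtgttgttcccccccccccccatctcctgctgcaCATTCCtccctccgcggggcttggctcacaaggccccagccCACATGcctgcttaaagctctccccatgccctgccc
Tnnc1: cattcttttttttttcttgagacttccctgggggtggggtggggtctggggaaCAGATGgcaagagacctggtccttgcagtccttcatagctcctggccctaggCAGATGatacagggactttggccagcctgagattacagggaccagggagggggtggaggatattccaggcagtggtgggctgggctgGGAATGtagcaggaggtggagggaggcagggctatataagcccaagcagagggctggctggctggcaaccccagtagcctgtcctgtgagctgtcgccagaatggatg
Tnni3: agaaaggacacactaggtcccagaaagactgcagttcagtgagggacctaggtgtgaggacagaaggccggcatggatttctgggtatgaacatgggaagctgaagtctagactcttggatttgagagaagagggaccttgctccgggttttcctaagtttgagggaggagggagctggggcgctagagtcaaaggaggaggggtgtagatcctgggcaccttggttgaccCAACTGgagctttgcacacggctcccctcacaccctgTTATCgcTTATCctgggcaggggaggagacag
Tnnt1: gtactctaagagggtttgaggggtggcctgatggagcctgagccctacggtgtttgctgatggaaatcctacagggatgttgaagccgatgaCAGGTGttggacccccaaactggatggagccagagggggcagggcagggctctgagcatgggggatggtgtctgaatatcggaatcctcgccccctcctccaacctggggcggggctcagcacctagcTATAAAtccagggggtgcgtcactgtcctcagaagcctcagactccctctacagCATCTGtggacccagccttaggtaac

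The motifs were the E-box CANNTG, the MCAT core CATTCC, the GATA core GATAA, the TATA letters TATAAA, and the CArG and MEF2 motifs by name; no 2 of them overlapped in these windows. The Tnnt2 window held 5 E-boxes, 2 GATA cores at 245 and 166 bases before the start and an MCAT core at 27 bases before it. That of Tnnc1 held 2 E-boxes and an MCAT core at 58 bases before the start. Tnni3 had 1 E-box and 2 GATA cores, which lay after the start, and Tnnt1 had 2 E-boxes and the TATA letters at 30 bases before the start. Of all 32851 promoter windows of this length, 72.3% held an E-box, 14.7% an MCAT core, 25.4% a GATA core, 13.6% the TATA letters, 1.63% a CArG motif and 3.19% a MEF2 motif. These matches are descriptions of letters and not of bound sites. The table held windows for 6 of the 8 genes, with Tnni2 and Tnnt3 not among them.

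The 6 troponin I and T genes lie in 3 neighbouring pairs in the mouse genome, and the partners did not share a pattern in 2 of them. Tnnt1 and Tnni3 have 0 genes between them, yet Tnni3 averaged 10.22 ± 0.40 in aorta against 5.10 ± 0.09 in sternocleidomastoid, while Tnnt1 averaged 5.64 ± 0.21 in aorta against 6.83 ± 0.40 in sternocleidomastoid (SD, n = 4 each). Tnni1 and Tnnt2 on chromosome 1 are separated by Lad1. Tnnt2 was 4.72 ± 0.30 log2 units higher in aorta than in muscle (SE; limma adjusted p = 4.7e-10), whereas Tnni1 differed by -0.36 ± 0.39 (adjusted p = 0.536). Tnni2 and Tnnt3 on chromosome 7 have Lsp1 and Prr33 between them and were both muscle-high.

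The fast isoforms were spread widely among tumors and among aortas. Tnnt3, fast troponin T, ran from 5.52 in tumor 5 through a median of 9.51 to 11.27 in tumor 2, against 9.15, 5.41, 8.53 and 5.90 in aortas 1 to 4. That is a 53.7-fold spread among tumors and a 13.3-fold spread among aortas. Its SD was 2.33 in tumors, where 18 of the 22180 genes had a larger one and the median gene had 0.21. In aortas its SD was 1.87, where 7 genes had a larger one and the median gene had 0.16.

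Tnni2, fast troponin I, spanned 5.28 in tumor 6, a median of 7.84 and 9.81 in tumor 2, against 7.34, 5.12, 7.39 and 5.17 in aortas 1 to 4. Tnnc2, fast troponin C, spanned 6.28 in tumor 5, a median of 8.39 and 10.23 in tumor 2, against 7.99, 6.27, 7.96 and 6.76 in the aortas. For all 3 fast genes the tumors ranked 2, 7, 1, 4 and 3 from the highest down, with tumors 5 and 6 lowest, and aortas 1 and 3 lay above aortas 2 and 4. In each case 4 tumors lay above every aorta and 0 lay below every aorta.

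The tumor minus aorta differences of the fast genes did not pass the threshold. They were 1.42 ± 0.96 for Tnnt3 (95% interval -0.58 to 3.43; limma adjusted p = 0.276), 1.20 ± 0.70 for Tnni2 (-0.26 to 2.66; adjusted p = 0.202) and 0.79 ± 0.61 for Tnnc2 (-0.49 to 2.06; adjusted p = 0.35). Without aortas 1 and 3 they grew to 3.02, 2.31 and 1.52, still short of it (adjusted p = 0.0602, 0.0517 and 0.172). Aortas 1 and 3 were the highest aortas for these genes, so leaving them out had to enlarge the differences. With tumors 1 to 4 alone Tnnt3 and Tnni2 were called higher (2.54 and 1.92; adjusted p = 0.00646 and 0.0108). With tumors 5 to 7 alone the differences were -0.06, 0.24 and 0.13 (adjusted p = 0.976, 0.862 and 0.911).

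Other skeletal muscle genes moved with the fast troponins from tumor to tumor. The mean of the 11 fast fibre genes was 9.63 in tumor 2, 8.95 in tumor 7, 8.46 in tumor 1, 8.28 in tumor 4, 6.36 in tumor 3, 5.44 in tumor 6 and 5.01 in tumor 5. Acta1, skeletal muscle actin, reached 12.31 in tumor 2 and 11.06 in tumor 7, against 7.55 in tumor 5 and 6.62 in tumor 6. In aortas 1 and 3 Acta1 stood at 10.07 and 9.74, and in aortas 2 and 4 at 5.65 and 6.15. Among the fast fibre genes Myh1 and Mylpf split the aortas likewise, with Myh1 at 8.0, 3.78, 8.1 and 4.3 in aortas 1 to 4. Others did not: Myh4 stayed between 4.53 and 5.75, and Myh2 was high in aorta 1 only (7.91, 5.12, 4.85 and 4.36). Of the 11 fast fibre genes 0 passed the test between tumors and aortas, with a median difference of 1.23. Whether pieces of skeletal muscle in the samples account for the fast troponin signal was not tested.

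**Figure D2:**
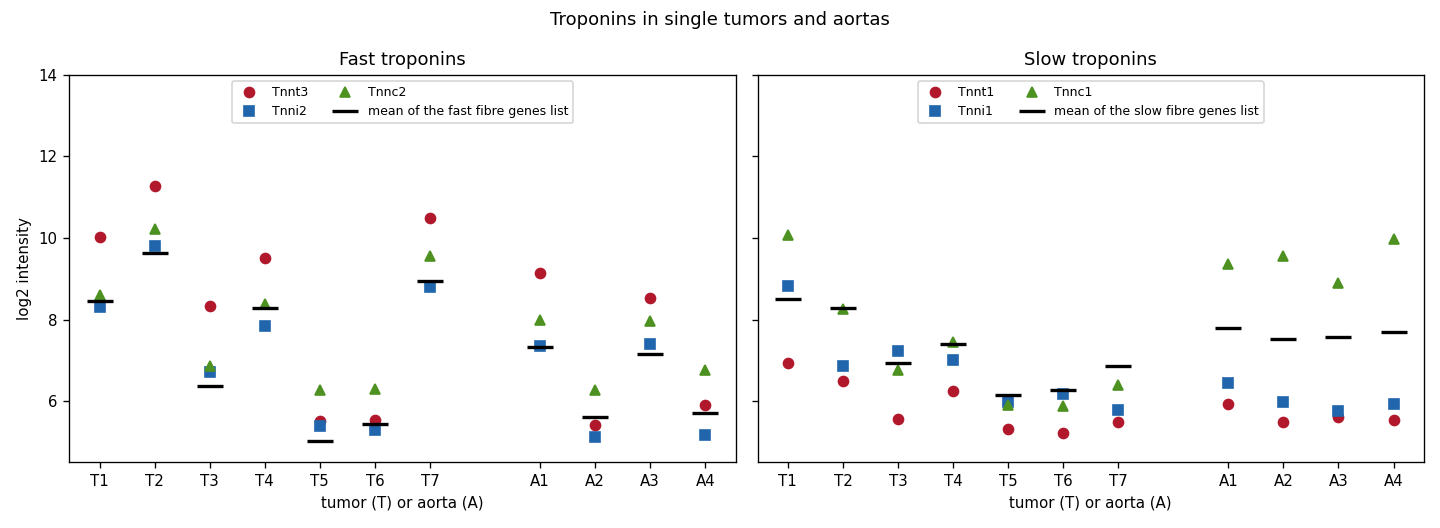
Log2 intensity of the fast troponins (left) and the slow troponins (right) in each of 7 tumors and 4 aortas, with the mean of the fast fibre or slow fibre list as a black bar. Among tumors, fast troponins were highest in tumor 2 and lowest in tumors 5 and 6, and among aortas they were lowest in aorta 2. Tnnc1 and Tnni1 were highest among tumors in tumor 1.

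The slow isoforms had a different order among tumors. Tnni1, slow troponin I, spanned 5.78 in tumor 7, a median of 6.87 and 8.83 in tumor 1, against 6.45, 5.97, 5.76 and 5.93 in aortas 1 to 4. Tumors 1 to 4 lay above every aorta, and 3 tumors also lay above every muscle array. Tnnt1, slow troponin T, spanned 5.22 in tumor 6, a median of 5.56 and 6.94 in tumor 1, against 5.94, 5.48, 5.61 and 5.53 in the aortas. Tumor 1 therefore held the highest value of each slow isoform and the third highest of each fast isoform.

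The mean of the 10 slow fibre genes was likewise highest in tumor 1, at 8.50, with tumor 2 at 8.29 and the other tumors between 6.16 and 7.41. Myh7, the slow myosin heavy chain, stood at 8.45 in tumor 1 and between 4.77 and 6.45 in the other tumors. Between tumors and aortas Tnni1 differed by 0.81 ± 0.40 (95% interval -0.02 to 1.64; limma adjusted p = 0.124) and Tnnt1 by 0.25 ± 0.28 (-0.34 to 0.84; adjusted p = 0.538). With tumors 1 to 4 alone both were called higher (1.46 and 0.66; adjusted p = 0.00163 and 0.0483), and with tumors 5 to 7 alone the values were -0.05 and -0.30 (adjusted p = 0.904 and 0.34). Without aortas 1 and 3 Tnni1 differed by 0.89 and Tnnt1 by 0.39 (adjusted p = 0.248 and 0.513).

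Tnni1 and Tnnt2 are also isoforms of developing muscle, so genes of that stage are given beside them. Of 10 developing muscle genes 0 rose in tumors over aorta and 1 fell, the cell adhesion molecule Ncam1 (-1.92 ± 0.45; adjusted p = 0.00198). The list mean was 5.29 to 6.33 in tumors and 5.64 to 5.85 in aortas, with tumor 2 the highest. Myh3, the embryonic myosin heavy chain, did not exceed 4.51 in any tumor, below the array medians. The partners of troponin on the thin filament were mixed, with 1 of 13 higher in tumors than in aortas and 3 lower. The largest were Actc1, cardiac actin (-4.25 ± 0.35; adjusted p = 2.84e-08), and Nebl, the heart relative of nebulin, which was at least 1.72-fold lower.

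Against skeletal muscle the pattern turned to the fast isoforms. Of the 8 genes, 3 fell in tumors relative to the mean of both muscles and 0 rose, and over all genes 51.0% were called, 25.7% as lower and 25.3% as higher. The 3 were Tnnt3, Tnni2 and Tnnc2, and in each all 7 tumors lay below all 8 muscle arrays. Tnnt3 measured 12.60, 12.56, 12.78 and 12.72 in sternocleidomastoid and 12.75, 12.67, 12.75 and 12.79 in quadriceps. Even tumor 2, the highest, stood below them at 11.27.

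Tnnt3 was 16.4-fold lower in tumors (-4.03 ± 0.79 log2 units; limma adjusted p = 0.000232). Tnni2 was 26.9-fold lower (-4.75 ± 0.57; adjusted p = 7.82e-07) and Tnnc2 18.7-fold lower (-4.23 ± 0.50; adjusted p = 6.08e-07). These means hide the spread among tumors: with tumors 1 to 4 alone the differences were -2.92, -4.03 and -3.73, and with tumors 5 to 7 alone -5.52, -5.71 and -4.88. Tnni2 lay below the array median in 2 of the 7 tumors. All 11 fast fibre genes fell as well, with a median of -5.12. Myoz1, a Z-disc protein of fast fibres, fell by 5.79 ± 0.51 and Myh4, the myosin of the fastest fibres, by 5.59 ± 0.83.

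The remaining 5 isoforms did not pass against muscle. Tnnt2 differed by 0.19 ± 0.26 (95% interval -0.34 to 0.73), Tnni1 by 0.45 ± 0.33 (-0.24 to 1.14) and Tnnc1 by 0.21 ± 0.49 (-0.82 to 1.23), with adjusted p of 0.563, 0.271 and 0.756. With tumors 1 to 4 alone Tnnt2 and Tnni1 were called higher (0.72 and 1.09; adjusted p = 0.00174 and 0.00365), and with tumors 5 to 7 alone Tnnc1 and Tnnt1 were called lower (-0.98 and -0.99; adjusted p = 0.0155 and 0.000354). Tnnt1 differed by -0.44 ± 0.23 (-0.93 to 0.04; adjusted p = 0.122). Without tumor 1 it was called lower (-0.62; adjusted p = 0.0165), as it was against sternocleidomastoid alone (-0.94; adjusted p = 0.00963), while against quadriceps alone it was 0.06 (adjusted p = 0.896). Tnni3 was dim in tumors and in both muscles, so no fold is given for it; its call changed when aorta 4 was left out (0.22; adjusted p = 0.0388, against 0.123 with all arrays).

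Thin filament partners mostly fell with the fast troponins, in 11 of 13 cases, with 1 higher. Tmod4, which caps thin filaments in skeletal muscle, fell by 4.63 ± 0.33 and Neb, the giant protein nebulin that runs along them, by 4.38 ± 0.71. The exception was Tpm3, a tropomyosin of slow fibres that has non-muscle forms too, which was 2.05 ± 0.13 higher in tumors (adjusted p = 1.71e-10). Among 11 transcription factors of striated muscle 8 fell and 3 rose. The largest changes were in Eya1, a coactivator in muscle progenitors (-3.36 ± 0.20), and in Sox6, a repressor of slow fibre genes (-3.22 ± 0.25).

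**Figure D3:**
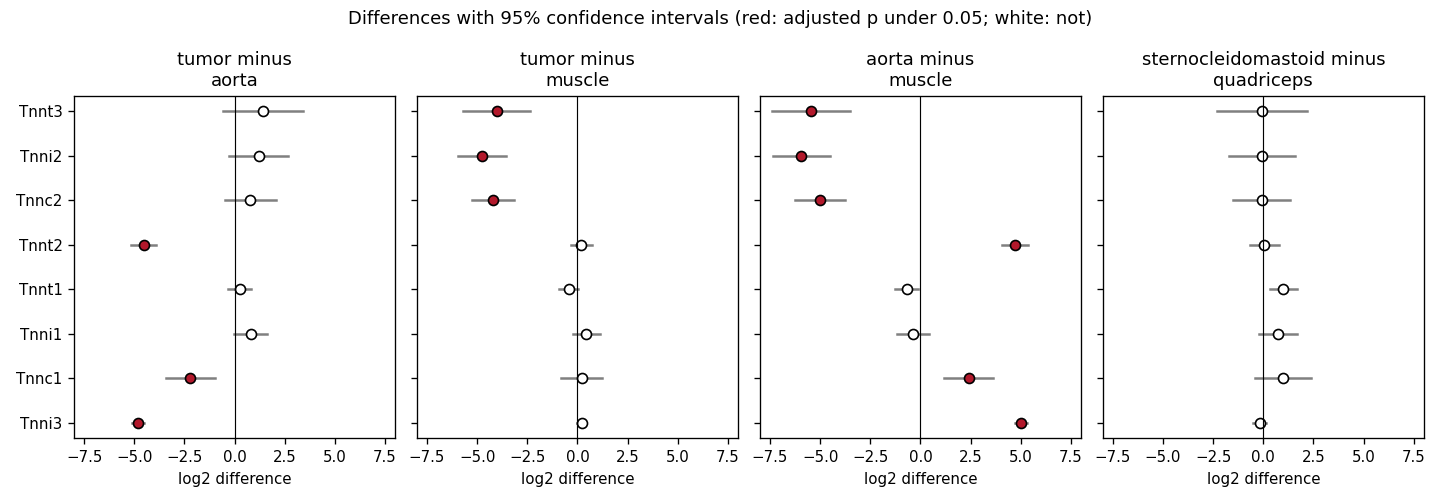
Log2 differences of the 8 troponins in 4 comparisons, with 95% confidence intervals from limma and red points where the adjusted p was under 0.05. Cardiac isoforms and Tnnc1 differed between tumors and aortas, fast isoforms between tumors and muscle, and 0 of the 8 genes passed between the muscles.

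Aorta and skeletal muscle, which are both wild type, separated the isoforms in opposite directions. Of the 8 genes 3 were higher in aorta and 3 were lower, while over all genes 17.0% were called higher and 15.3% lower. All 4 aortas lay above all 8 muscle arrays for the 3 higher genes and below them for the 3 lower ones. The share of all genes separated in this way was not counted. Tnni3 was at least 28.2-fold higher in aorta (5.02 ± 0.13; limma adjusted p = 2.89e-15), Tnnt2 26.4-fold higher (4.72 ± 0.30; adjusted p = 4.7e-10) and Tnnc1 5.30-fold higher (2.41 ± 0.58; adjusted p = 0.00293).

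The fast isoforms were lower in aorta, Tnni2 by 61.7-fold (-5.95 ± 0.68; adjusted p = 1.19e-06), Tnnt3 by 43.9-fold (-5.46 ± 0.93; adjusted p = 0.000126) and Tnnc2 by 32.3-fold (-5.01 ± 0.59; adjusted p = 1.83e-06). Without aortas 1 and 3 the log2 differences of these fast genes were -7.06, -7.05 and -5.74, those of Tnni3, Tnnt2 and Tnnc1 were 5.28, 4.91 and 2.73, and all 6 calls held. For the fast genes a larger difference had to follow, because aortas 1 and 3 were their highest aortas. Tnni2 lay below the array median in aortas 2 and 4, and Tnnt3 in aorta 2. Neither aorta mean was dim, so no lower bound was given for these folds. Heart muscle markers were higher in aorta in 12 of 14 cases and lower in 0, with Myl7 at least 61.7-fold higher. This comparison shares its aortas with the tumor and aorta comparison and its muscles with the tumor and muscle comparison. Tnnt1 differed by -0.69 ± 0.27 (-1.27 to -0.12; adjusted p = 0.061) and was called lower against sternocleidomastoid alone (-1.19; adjusted p = 0.008). Without aortas 1 and 3 Tnnt1 differed by -0.83 (adjusted p = 0.122) and Tnni1 by -0.44 (adjusted p = 0.608).

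The last comparison set the neck muscle against the thigh muscle. In the fit over all 19 arrays 0 of the 8 troponins passed, against 0.433% of all genes called, and 1 had an unadjusted p under 0.05. That gene was Tnnt1, with 7.01, 7.25, 6.73 and 6.31 in sternocleidomastoid and 6.04, 6.20, 5.62 and 5.48 in quadriceps. The muscles did not overlap, and the difference was 0.99 ± 0.32 (95% interval 0.33 to 1.66; limma adjusted p = 0.317). The share of all genes without overlap between the muscles was not counted.

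Tnni1 did not overlap either, with 6.81, 6.96, 6.64 and 6.62 in sternocleidomastoid and 6.01, 6.53, 6.04 and 5.51 in quadriceps (0.73 ± 0.45; interval -0.20 to 1.67; adjusted p = 0.836). Tnnc1 measured 7.41, 8.20, 7.29 and 7.17 in sternocleidomastoid and 7.19, 7.13, 6.12 and 5.80 in quadriceps, where only the fourth neck muscle overlapped (0.96 ± 0.67; interval -0.44 to 2.36; adjusted p = 0.879). The fast genes differed by -0.07 for Tnnt3 and -0.08 for Tnni2 and Tnnc2. Their intervals in this fit are wide, reaching -2.33 to 2.19 for Tnnt3, because the spread estimate includes the tumors and aortas, although its SD was 0.10 in sternocleidomastoid and 0.05 in quadriceps. With the 8 muscle arrays alone 0 of 8 passed as well.

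Whether slow and fast paralogs changed unequally was asked within each array, by subtracting the fast from the slow gene of each subunit. This asks about change alone, since levels of different probe sets cannot be compared. The slow minus fast difference was higher in sternocleidomastoid than in quadriceps for all 3 subunits, in 4 of 4 against 4 of 4 arrays without overlap. No such count was made for other pairs of genes. The gap between muscles was 1.07 log2 units for troponin T (-5.84 ± 0.49 in sternocleidomastoid and -6.90 ± 0.38 in quadriceps), 0.81 for troponin I (-5.40 ± 0.27 in sternocleidomastoid and -6.21 ± 0.44 in quadriceps) and 1.04 for troponin C (-4.70 ± 0.54 in sternocleidomastoid and -5.74 ± 0.69 in quadriceps; SD, n = 4 each). Each had an exact two-sided permutation p of 0.0286, which is the smallest that 4 against 4 arrays can give, and 0.0286 after Benjamini-Hochberg adjustment over the 3 pairs. The fast genes hardly differed between the muscles (-0.07, -0.08 and -0.08). Each gap was therefore close to the slow gene's own difference (0.99, 0.73 and 0.96), which did not pass in the fit over all genes. The permutation test reads the same muscle arrays again and is not separate support.

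The threshold was missed after quantile normalization, where the gaps for troponin T, I and C were 1.06, 0.78 and 0.97 (exact permutation adjusted p = 0.0857, 0.114 and 0.114; Tnnt1, Tnni1 and Tnnc1 minus their fast paralogs). Leaving out any neck muscle array gave exact permutation adjusted p from 0.0857 to 0.143, and any thigh muscle array from 0.0429 to 0.0571. With an array fewer the test has fewer possible splits, so these p-values also reflect the number of arrays. The gaps themselves stayed between 0.63 and 1.26. Quadriceps arrays themselves differed: the slow fibre list was 7.95 and 7.88 in quadriceps 1 and 2, against 7.17 and 6.72 in quadriceps 3 and 4, and Tnnc1 followed the same order. In sternocleidomastoid that list ran from 8.13 to 8.77. Of the 10 slow fibre genes 1 rose in the neck muscle and 0 fell, namely Atp2a2, the slow and cardiac calcium pump (1.07 ± 0.14; limma adjusted p = 0.000441). Of the 11 fast fibre genes 0 passed in either direction. Brown fat cell markers were also at higher levels in the neck muscle: the mean of 7 was 9.14 to 10.21 in sternocleidomastoid and 7.49 to 8.79 in quadriceps, without overlap. Of the 7, 1 rose and 0 fell, namely the fatty acid elongase Elovl3 (2.36 ± 0.51; limma adjusted p = 0.047). Ucp1, the defining brown fat uncoupling protein, averaged 11.22 in sternocleidomastoid and 5.88 in quadriceps (adjusted p = 0.137). Among the thigh muscles the brown fat mean was 7.49, 7.55 and 7.57 in quadriceps 1 to 3. Quadriceps 4 had the highest, 8.79, and the lowest Tnnt1, Tnni1 and Tnnc1, which rests on 1 array. The part of brown fat RNA in the difference between the muscles was not tested.

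**Figure D4:**
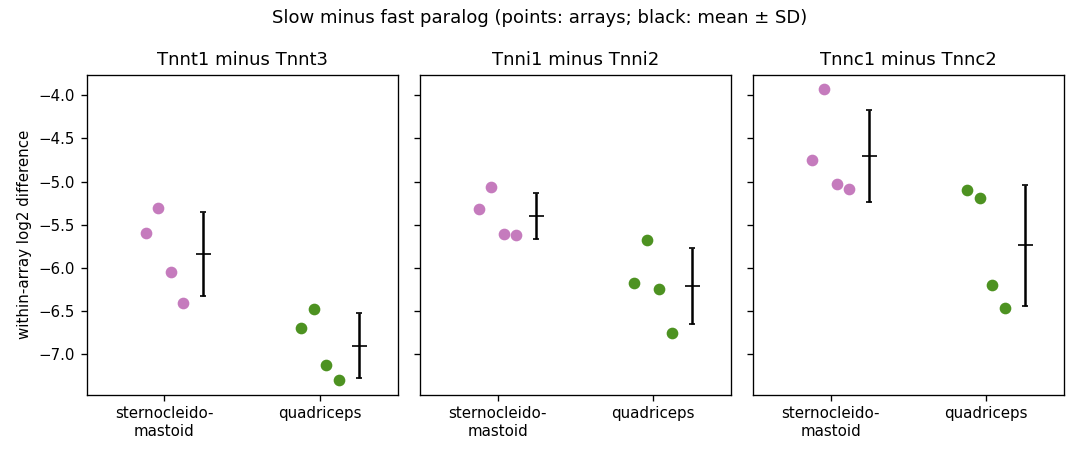
Within-array log2 difference between the slow and the fast paralog of troponin T, I and C, with a point per array in sternocleidomastoid and quadriceps and the mean ± SD in black. In each panel the 4 neck muscle arrays lie above the 4 thigh muscle arrays, by a small margin.

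The tissues can be ordered by level for each isoform. For Tnnt3, Tnni2 and Tnnc2 the order was quadriceps, sternocleidomastoid, tumor and aorta, where neither the muscles nor tumor and aorta differed past the threshold. For Tnnt2 it was aorta, tumor, sternocleidomastoid and quadriceps, and the last 3 did not differ from each other past it. Tnni3 followed aorta, tumor, quadriceps and sternocleidomastoid with the last 3 dim, and Tnnc1 followed aorta, sternocleidomastoid, tumor and quadriceps, of which the last 3 did not differ past the threshold. Tnnt1 was highest in sternocleidomastoid, which tumors and aortas were called below (-0.94 ± 0.28 and -1.19 ± 0.32; limma adjusted p = 0.00963 and 0.008). Against the single muscles 44.7% of all genes were called for tumor minus quadriceps, 45.9% for tumor minus sternocleidomastoid, 29.1% for aorta minus quadriceps and 27.0% for aorta minus sternocleidomastoid. For Tnni1 no pair of tissues passed, with means of 6.84 ± 1.04 in tumors, 6.03 ± 0.30 in aortas, 6.76 ± 0.16 in sternocleidomastoid and 6.02 ± 0.42 in quadriceps (SD).

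Other genes were ranked by how closely the 4 tissue means, centred on their own average, followed each troponin, as a Euclidean distance in log2 units. Nearest to Tnnt3 were the fast fibre calcium pump Atp2a1 (distance 0.12), Neb (0.31) and the myosin-binding protein Mybpc1 (0.45). Nearest to Tnni2 were the Z-disc protein myotilin, Myot (0.08), the fast myosin light chain Mylpf (0.14) and Asb5 (0.22), and nearest to Tnnc2 were Atp2a1 (0.35), Tmod4 (0.40) and Prr33 (0.41), the gene between Tnni2 and Tnnt3. The cardiac isoform Tnnt2 was followed by Hamp, which encodes the iron hormone hepcidin (0.34), the calcium pump regulator Sln (0.43) and the atrial myosin Myh6 (0.55), and Tnni3 by the integrin chain Itga8 (0.36), Hamp (0.48) and Myh6 (0.55).

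The slow isoforms had nearest profiles outside the sarcomere. Tnnc1 was followed by the glycogen phosphorylase Pygl (0.17), the fat cell regulator Pparg (0.22) and the citrate carrier Slc25a1 (0.28). The mean of 7 brown fat cell markers was 4.93 to 8.61 in tumors and 10.76 to 11.45 in aortas, with the muscle ranges given above, and its part in the Tnnc1 profile was not tested. Tnni1 was followed by the uridine kinase Uck2 (0.19), the transcription factor Osr2 (0.23) and Klk1b22 (0.24), and Tnnt1 by Wfdc12 (0.05), the transcription factor Irx1 (0.17) and Fzd10os (0.20). The Tnni1 and Tnnt1 profiles are shallow, so that many genes come close to them, and each distance rests on 4 tissue means.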

How the data were processed

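RNA from 19 samples was extracted with a Qiagen miRNeasy kit, labelled with biotin and hybridised to Affymetrix mouse arrays, per the labels' protocols. The values deposited by the authors were read as log2 intensity from their range of 1.59 to 13.78. Partek 6.6 is named in the submitters' processing notes; no source used here gives its role, the background correction or the normalization. No further scaling was applied.

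Of 41345 probe sets, 23521 carried 1 symbol in the platform annotation, 1814 several and 16010 none. For genes with several, the probe set with the highest mean was used. A model with 1 mean per tissue was fitted to 22180 genes with limma 3.58.1 (R 4.3.3, two-sided), with Benjamini-Hochberg adjustment over all genes and a threshold of 0.05, after a test on simulated data. Paralog pairs were compared by exact permutation. A mean below every array median of its group was called dim.

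The members and gene lists were chosen with earlier results of these data known. All members are named; nearest genes exclude Riken and Gm-numbered names, and lists name up to 2 called members with the largest differences. The alternatives were other scalings, probe set means, a dim filter, other variance models and thresholds, subsets of groups or tumors, and each array left out. The number of arrays limits the precision.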

Additional observations from a re-analysis of the deposited data

How the results depend on the processing

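The counts of troponins called kept within 1.5 times of their value in most alternatives. For tumors and aortas, tumors 1 to 4 alone gave 4 higher in place of 0, with 4385 of all 22180 genes higher. Each array left out gave 0 higher and 3 lower, with 32.0% to 37.3% of all genes called. For tumors and muscle, troponins higher numbered 2 with tumors 1 to 4 alone (Tnni1 and Tnnt2), with 5412 of 22180 genes higher. With the compared groups only, 1 was higher (Tnni3, 0.22, limma adjusted p = 0.041), with 5490 of all genes higher. Troponins lower numbered 6 with arrays centred on the housekeeping list, where 18233 of 22180 genes were lower. With tumors 5 to 7 alone 5 were lower, with 4543 of all genes lower. With an array left out 0 to 1 were higher and 3 to 4 lower, with 48.5% to 51.2% of all genes called. For aorta and muscle 3 were higher and 3 to 4 lower with an array left out, the extra one being Tnnt1, with 28.1% to 33.7% of all genes called. Between the muscles 0 were called in every alternative, with 0.221% to 0.987% of all genes called, and 1 gene had an unadjusted p under 0.05. The paralog gaps after quantile normalization were 1.06, 0.78 and 0.97, and with a muscle array left out 0.89 to 1.26 for troponin T, 0.63 to 0.99 for troponin I and 0.79 to 1.26 for troponin C.

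Differences that changed sign under an alternative had not passed the threshold with all arrays, and 3 of them passed after it (Tnni3 and Tnnt2 under housekeeping centring, adjusted p = 1.47e-05 and 0.0135, and Tnnc1 with tumors 5 to 7, adjusted p = 0.0155, all against muscle). Centring on the 8 housekeeping genes moved the median of all genes to -0.62 for tumors minus aorta, -0.88 for tumors minus muscle and -0.23 for aorta minus muscle; 6.74% of the 18336 genes then called between tumors and aortas were higher, against 51.5% of 8023, and 8.35% of 19895 between tumors and muscle, against 49.7% of 11308. Under it Tnnt1 turned to -0.35 against aorta, and Tnnc1 to -0.64, Tnni1 to -0.39, Tnni3 to -0.63 and Tnnt2 to -0.65 against muscle. With tumors 5 to 7 alone Tnni1 turned to -0.05, Tnnt1 to -0.30 and Tnnt3 to -0.06 against aorta, and Tnnc1 to -0.98, Tnni1 to -0.41 and Tnnt2 to -0.52 against muscle. Against muscle, Tnnc1 was -0.27 without tumor 1 (up to 0.43 with another array left out) and -0.28 with sternocleidomastoid alone, and Tnnt1 0.06 with quadriceps alone; Tnni1 in aorta was 0.004 against quadriceps alone. Between the muscles Tnnt2 was -0.03 and -0.08 without quadriceps 3 and 4 and -0.07 without sternocleidomastoid 2 (up to 0.14 without another array). Tnnt1 in aorta against muscle passed under 10 alternatives, among them quantile normalization (-0.76, adjusted p = 0.0359) and the compared groups only (adjusted p = 0.00486). The cause of these changes was not tested.

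Over all genes a minimum 2-fold difference left 2569, 3863 and 1993 called in these comparisons (1993 against 7168 for aorta and muscle). Between the muscles the 96 calls became 52 at 2-fold, 49 at a threshold of 0.01, 219 with one variance per group, 200 with the muscles alone, and 60, 52 and 63 without quadriceps 1, 2 and 3. Leaving out aortas 1 and 3 was chosen after seeing the data. No paired analysis was made, because replicate numbers follow accession order and no label says whether neck and thigh muscles shared animals. The tests therefore treat the muscle arrays as independent.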
